A study of Homo sapiens with 4 samples.

Results

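The genes described here are the secreted antagonists of WNT signaling: 10 genes chosen by name, 4 of the Dickkopf family (DKK1, DKK2, DKK3 and DKK4), 5 of the secreted frizzled-related family (SFRP1, SFRP2, SFRP4, SFRP5 and FRZB) and WIF1, of 17894 genes listed in each library. All 10 were found in the files. The libraries came from H1, a human embryonic stem cell line, after 2 days of hematopoietic differentiation on the mouse stromal line mAGM-S3, with the human cells sorted by the surface antigen TRA-1-85. There were 4 libraries: 1 of wild-type control cells, 1 of wild-type cells that had received R-spondin2 at 20 ng/mL for the first day, and 1 from each of 2 untreated LGR4-/- clones. Control, R-spondin2-treated and LGR4-/- cells thus shared the H1 background, the stroma, the serum-containing medium and the day of collection. Each LGR4-/- library stood for 1 clonal line, so clone and library cannot be told apart, and no condition had a replicate culture.

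WNT ligands are secreted proteins that bind a Frizzled receptor together with the co-receptor LRP5 or LRP6 and so stabilize beta-catenin, which acts with TCF/LEF factors in the nucleus. Dickkopf proteins such as DKK1 occupy LRP5/6, with KREMEN1 and KREMEN2 as further receptors, whereas SFRP proteins, FRZB and WIF1 bind the WNT ligands themselves. R-spondins act through LGR receptors, LGR4 among them, and raise the amount of Frizzled and LRP at the cell surface by taking the ubiquitin ligases RNF43 and ZNRF3 out of action. In the early embryo WNT signaling drives the primitive streak, and DKK1 is itself known as a transcriptional target of beta-catenin in several tissues. SFRP1 and SFRP2 are expressed by undifferentiated human pluripotent cells.

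Expression was measured by RNA-SEQ, and the deposited unit was FPKM, a read density corrected for transcript length and library size. The spacing of the low FPKM, taken as whole reads, gave an estimated depth of 8700000 to 8920000 reads per library. From this estimate and the transcript length, the FPKM of a gene with 1 transcript was turned into implied reads, and all intervals given are exact 95% intervals for counting error only. For LGR4 itself, which was targeted, the control gave 21.77 FPKM and the R-spondin2 library 24.26, against 7.40 in LGR4-/- clone 1 and 13.95 in clone 2, so its RNA was lower in both clones and still present. The part of the gene that was targeted is not shown by these values, so the loss of LGR4 could not be checked from them, and LGR4-/- is used here as the label of these libraries. For a check of the cells, 8 pluripotency markers and 12 markers of primitive streak and early mesoderm were listed. Every one had a mean of at least 1 FPKM, with POU5F1 at 597.1 FPKM and MIXL1 at 376.6 FPKM in the control. RNA of both lists was thus present in the sorted cells, and whether in the same or in different cells is not shown. Of 8 markers of blood and endothelium, 5 (PECAM1, CD34, CDH5, GATA1 and SPI1) stayed at or below 0.55 FPKM in all 4 libraries, while TEK was at 4.88 to 9 FPKM, RUNX1 at 0.61 to 3.96 FPKM and PTPRC at 1.18 to 1.52 FPKM. In such bulk libraries a smaller share of cells expressing a gene and less RNA per expressing cell cannot be told apart.

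The promoters of DKK1 and SFRP2, the 2 antagonists with the highest mean FPKM over the 4 libraries, are shown. The windows run from 250 bases before to 50 bases after the RefSeq start (GRCh38.p14). The window of DKK1 lies at chr10:52314031-52314330 on the plus strand and that of SFRP2 at chr4:153789034-153789333 on the minus strand. Capitals mark matches to the TCF/LEF core, searched as CTTTGA and CTTTGT on both strands, so that TCAAAG is the first of these read from the other strand.
DKK1: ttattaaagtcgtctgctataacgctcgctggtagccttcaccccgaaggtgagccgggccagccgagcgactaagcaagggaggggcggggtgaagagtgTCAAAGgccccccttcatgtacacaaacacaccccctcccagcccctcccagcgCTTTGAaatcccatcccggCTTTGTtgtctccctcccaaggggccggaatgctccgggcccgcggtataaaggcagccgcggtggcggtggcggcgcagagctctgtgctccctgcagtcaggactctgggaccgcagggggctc
SFRP2: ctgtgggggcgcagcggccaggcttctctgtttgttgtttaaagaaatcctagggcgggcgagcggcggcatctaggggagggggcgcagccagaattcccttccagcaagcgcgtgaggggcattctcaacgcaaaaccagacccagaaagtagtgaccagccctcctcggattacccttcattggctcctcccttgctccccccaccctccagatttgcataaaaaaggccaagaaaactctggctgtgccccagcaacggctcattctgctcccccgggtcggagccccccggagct

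The DKK1 window held 3 matches, which began 149, 95 and 76 bases before the start. Of all 35116 promoter windows of this length, 26.2% held at least 1 match and 0.886% held 3 or more. The windows of SFRP2, SFRP4, SFRP5, FRZB and WIF1 held none. Neither the SMAD element GTCTAGAC, found in 0.202% of all windows, nor the T-box element TCACACCT, found in 0.980%, occurred in any of these 6 windows. With 63.7% G and C in the DKK1 window and 60.3% in that of SFRP2, both were close to the median of 58.7% over all windows. A match of letters is a description of the sequence and not a measured binding site. The part of these matches in the level of any antagonist was not tested. No window for DKK2, DKK3, DKK4 or SFRP1 was used here.

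The levels of the antagonists spanned from no read to 173.3 FPKM, and 5 genes made up nearly all of their RNA. In the control library the order was DKK1 at 139.1 FPKM (interval 133.4 to 145.0), SFRP2 at 73.9 (69.97 to 77.94), DKK4 at 43.3 (38.82 to 48.08), SFRP1 at 28.8 (27.16 to 30.51) and DKK3 at 14.3. The intervals of the first 4 did not overlap. DKK3 has 3 annotated transcripts, so that no reads and no interval were derived for it. FRZB followed at 2.89 FPKM (2.31 to 3.61). The next 2, SFRP5 at 0.890 FPKM (0.513 to 1.51) and WIF1 at 0.550 FPKM (0.275 to 0.986), could not be ordered at this depth. SFRP4 at 0.110 FPKM rested on 3 reads. DKK2 was listed at 0 in the control and the R-spondin2 library, where 3 reads would have given 0.0924 and 0.0948 FPKM, and at 1 and 2 implied reads in the clones. Of the 10 genes, 6 had a mean of at least 1 FPKM over the 4 libraries and entered the count of changed genes, and the other 4 (DKK2, SFRP4, SFRP5 and WIF1) did not.

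**Figure D1:**
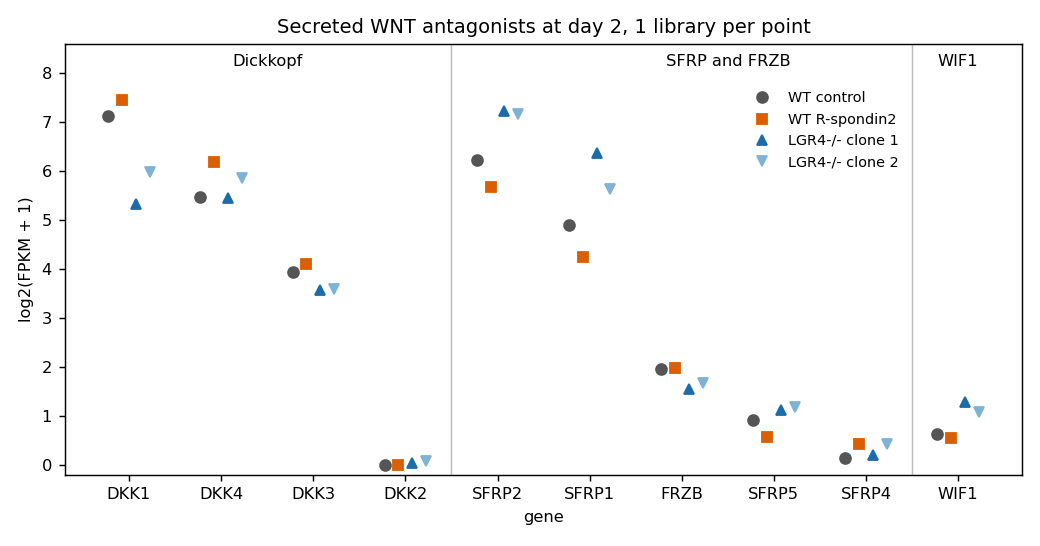
Level of each antagonist as log2(FPKM + 1), with 1 point per library and the genes grouped by family. DKK1 is highest in the 2 wild-type libraries and SFRP2 in the 2 LGR4-/- clones, while DKK2 lies at or near 0 in all 4.

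The order of the abundant antagonists differed between the libraries. DKK1 stood first in both wild-type libraries, followed by SFRP2 in the control and by DKK4 with R-spondin2. In both clones SFRP2 stood first, at 149.2 FPKM (143.6 to 154.9) in clone 1 and 142.8 FPKM (137.4 to 148.5) in clone 2. Clone 1 had SFRP1 in the next place at 82.3 FPKM (79.47 to 85.11), and then DKK4 at 43.0 FPKM (38.50 to 47.74) and DKK1 at 39.4 FPKM (36.36 to 42.58), whose intervals overlapped. In clone 2 DKK1 at 62.0 FPKM (58.13 to 65.96) and DKK4 at 57.0 FPKM (51.86 to 62.53) also overlapped, and SFRP1 came next at 48.9 FPKM (46.79 to 51.18). DKK3 and then FRZB followed these in all 4 libraries.

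Summed over all 10 genes the FPKM differed little between the libraries, while the share of each family differed widely. The sum was 303.8 FPKM in the control, 334.6 with R-spondin2, 329.4 in clone 1 and 326.7 in clone 2. The Dickkopf genes held 64.7% of it in the control, 78.2% with R-spondin2, 28.3% in clone 1 and 39.8% in clone 2. The SFRP genes and FRZB held 35.1%, 21.6%, 71.3% and 59.9% in the same order. DKK1 was thus at 1.88 times the FPKM of SFRP2 in the control and 3.43 times with R-spondin2, against 0.264 times in clone 1 and 0.434 times in clone 2. WIF1 added at most 1.44 FPKM to any sum.

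**Figure D2:**
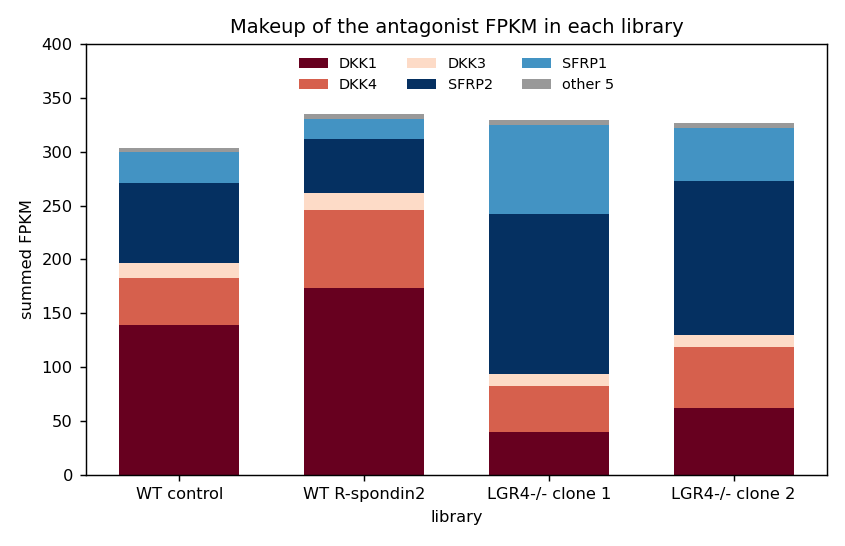
Stacked FPKM of the antagonists in each library, with Dickkopf genes in red, SFRP1 and SFRP2 in blue and the other 5 genes in grey. The sums lie between 303.8 and 334.6 FPKM, and the Dickkopf part runs from 28.3% in clone 1 to 78.2% with R-spondin2.

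R-spondin2 against control asks what 1 day of the ligand does to the antagonists of its own pathway. DKK1 and DKK4, both ligands of LRP5/6, were higher in the R-spondin2 library, SFRP1 and SFRP2 were lower, and the differences were below 2-fold in all of them. None of the 6 antagonists that passed the filter differed 2-fold on the log2(FPKM+1) scale, a size that 0.221% of the 12697 genes tested reached. At 1.5-fold, which 2.00% of all genes reached, 2 of the 6 counted, DKK4 as higher and SFRP1 as lower. Across all 10 genes 5 were higher, 4 lower and DKK2 equal, with a median log2 difference of 0.01, and for the 6 in the filtered set it was 0.10 (4 higher and 2 lower), against -0.008 over all genes tested. With 1 library on each side, these differences have no replicate check.

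DKK4 (NCBI gene 27121) had the highest ratio among the abundant antagonists, with 43.3 FPKM in the control and 72.1 with R-spondin2, or 1.67-fold. Its 345 and 561 implied reads gave a log2 ratio of 0.74 with an interval of 0.54 to 0.94. On the log2(FPKM+1) scale its difference was 0.72, at rank 32 from the top of the 12697 genes. DKK1 (NCBI gene 22943) was at 139.1 FPKM in the control and 173.3 FPKM with R-spondin2, or 1.25-fold, with a log2 ratio of 0.32 (interval 0.24 to 0.40). DKK3, a more distant relative that is not known to block LRP5/6 in the manner of DKK1, was at 14.3 and 16.3 FPKM.

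SFRP1 (NCBI gene 6422) was at 28.8 FPKM in the control and 18.1 with R-spondin2. Its log2 ratio was -0.67 (interval -0.81 to -0.53), and its difference of -0.64 stood at rank 129 from the bottom of all genes. SFRP2 (NCBI gene 6423) was at 73.9 and 50.5 FPKM, a log2 ratio of -0.55 (interval -0.67 to -0.43) that fell short of 1.5-fold. For FRZB, which is also known as SFRP3, the 82 and 81 implied reads gave a log2 ratio of 0.02 with an interval of -0.44 to 0.48, so that no difference could be seen with so few reads. The same held for SFRP5, at 15 and 8 reads (interval -2.32 to 0.46), and for WIF1, at 11 and 9 reads (interval -1.70 to 1.16). SFRP4 was at 3 and 9 reads, too few for an interval by the minimum set here.

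**Figure D3:**
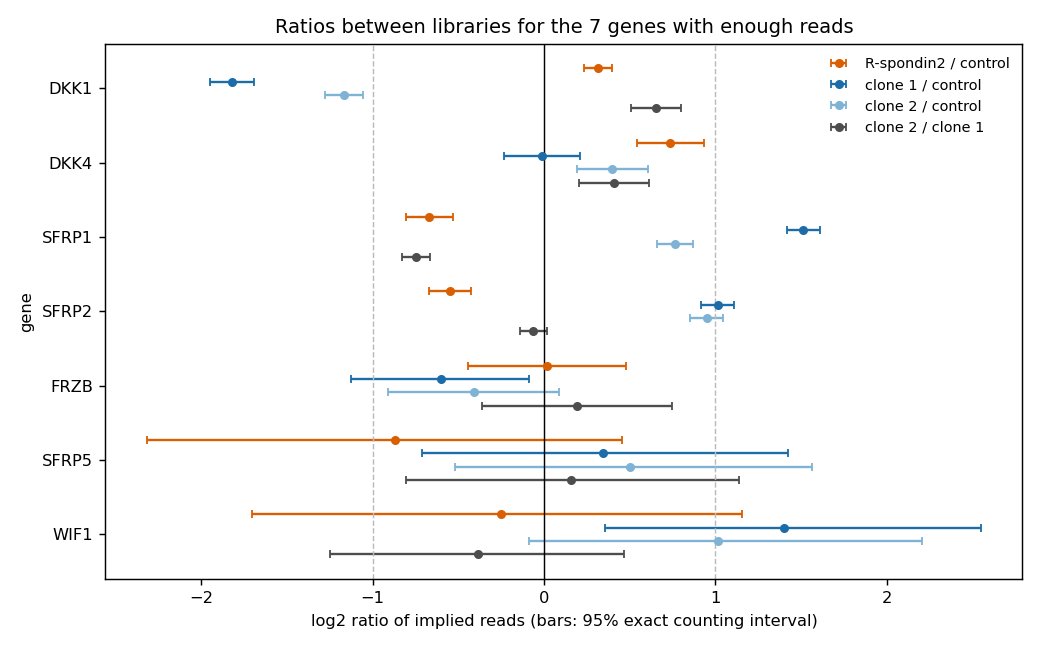
Log2 ratio of implied reads between libraries for the 7 antagonists with at least 10 reads in 1 of the libraries, with bars for the exact 95% counting interval and dashed lines at 2-fold. DKK1 lies left and SFRP1 and SFRP2 right of 0 for both LGR4-/- clones over control, and the intervals of SFRP5 and WIF1 are wide.

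LGR4-/- against control asks how the antagonists stand when the receptor gene is targeted. DKK1 was lower than control in both clones and SFRP1 and SFRP2 were higher in both, the largest differences among the antagonists on the log2(FPKM+1) scale. As a log2 ratio of implied reads that of WIF1, from at most 29 reads, was above that of SFRP2 in both clones, with wide intervals. At 2-fold in both clones, 1 of the 6 genes counted, DKK1, against 1.32% of the genes tested. At 1.5-fold in both clones 3 of the 6 counted, DKK1 as lower and SFRP1 and SFRP2 as higher, against 5.70% of the genes tested. The median difference of the clone mean was -0.08 over the 6 genes that passed the filter (3 higher and 3 lower) and 0.18 over all 10 (7 higher and 3 lower), against 0.02 over the genes tested, so that its sign depended on the 4 genes of low level. The median hides opposite signs, as the median absolute difference of the 6 genes was 0.67 and that of all genes 0.15. Both this comparison and the previous one use the same control library, so the opposite signs of a gene in them are not independent.

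For DKK1 the control gave 139.1 FPKM, clone 1 39.4 and clone 2 62.0. Clone 1 thus held 28.3% and clone 2 held 44.6% of the control level, and the clones did not overlap the wild-type libraries. Its log2 ratio to control was -1.82 (interval -1.95 to -1.69) in clone 1 and -1.17 (interval -1.28 to -1.06) in clone 2. On the log2(FPKM+1) scale the mean of both clones was -1.48 (-1.80 and -1.15), at rank 79 from the bottom of all genes tested.

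For SFRP1 the control gave 28.8 FPKM, clone 1 82.3 and clone 2 48.9. This was 2.86-fold and 1.70-fold of the control, with log2 ratios of 1.51 (interval 1.42 to 1.61) and 0.77 (interval 0.66 to 0.87). SFRP2 differed less between the clones, with 2.02-fold and 1.93-fold of the control and log2 ratios of 1.01 (interval 0.92 to 1.11) and 0.95 (interval 0.86 to 1.05). Only clone 1 passed 2-fold for either gene. The mean differences of SFRP1 (1.11) and SFRP2 (0.97) stood at ranks 38 and 87 from the top of all genes.

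The other Dickkopf genes did not share the lower level of DKK1 to the same extent. DKK4 was at 43.0 FPKM in clone 1, where it could not be told from the 43.3 FPKM of the control (log2 ratio -0.01, interval -0.23 to 0.21). In clone 2 it was at 57.0 FPKM, higher than control by a log2 ratio of 0.40 (interval 0.19 to 0.60). DKK3 was at 10.9 and 11 FPKM in the clones, 76.0% and 77.0% of the control. FRZB was at 1.92 and 2.20 FPKM, and its interval left out 0 in clone 1 (-1.12 to -0.09) and not in clone 2 (-0.91 to 0.09).

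The least abundant antagonists gave less certain values. WIF1, which binds WNT ligands through its own WIF domain, gave 1.44 FPKM for clone 1 and 1.11 for clone 2, against 0.550 in the control. With 29, 22 and 11 implied reads, its log2 ratio to control was 1.40 (interval 0.36 to 2.55) in clone 1 and 1.02 (interval -0.09 to 2.21) in clone 2. SFRP5 was at 1.19 and 1.27 FPKM, and both intervals included 0. SFRP4 was at 0.150 and 0.340 FPKM.

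**Figure D4:**
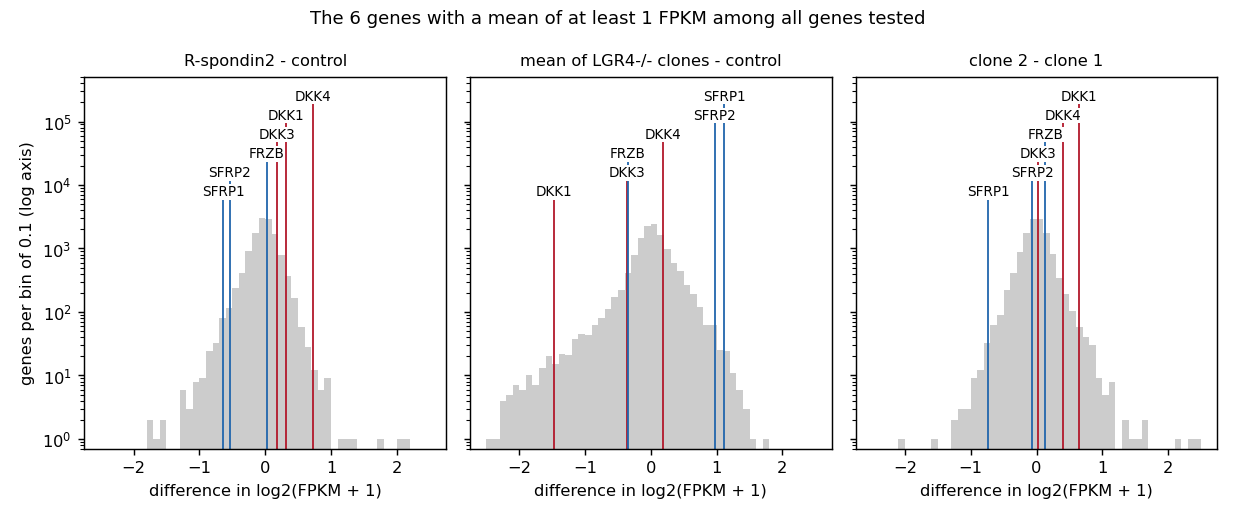
Histograms of the differences in log2(FPKM + 1) of the 12697 genes tested, with the 6 antagonists drawn as lines (Dickkopf red, SFRP and FRZB blue) and values beyond 2.5 placed in the outermost bins; the vertical axis is logarithmic. In the middle panel DKK1 lies at -1.48 and SFRP1 and SFRP2 at 1.11 and 0.97.

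The 2 LGR4-/- clones also differed from each other. Clone 2 had more DKK1 than clone 1, with a log2 ratio of 0.65 (interval 0.51 to 0.80), and less SFRP1, with -0.75 (interval -0.83 to -0.67). DKK4 was higher in clone 2 by 0.41 (interval 0.20 to 0.62), whereas SFRP2 did not differ beyond counting error (-0.06, interval -0.14 to 0.02). None of the 6 genes differed 2-fold between the clones, against 0.252% of the genes tested, and 2 of the 6 (DKK1 and SFRP1) differed 1.5-fold, against 2.41%. LGR4 itself was higher in clone 2 by 0.83 on the log2(FPKM+1) scale. All 12 markers of primitive streak and early mesoderm were also higher in clone 2, with a median of 0.53. The part of either in the antagonist differences between the clones was not tested.
The comparison of the clones and that of R-spondin2 with control have no library in common, and their values can be set side by side. DKK1 differed by 0.32 with R-spondin2 and by 0.65 between the clones, DKK4 by 0.74 and 0.41, SFRP1 by -0.67 and -0.75, and SFRP2 by -0.55 and -0.06, all as log2 ratios of implied reads.

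Among all genes tested, the profiles nearest to each of the 3 antagonists with the widest range were found by the Euclidean distance of log2(FPKM+1), centred on the mean over the 4 libraries. For DKK1, with a range of 2.11, these included ANPEP (distance 0.0473), FLNC (0.0698), LZTS1 (0.0757) and ITGA9 (0.0803). FLNC, an actin-binding filamin, was at 51.4, 66.5, 14.6 and 24.2 FPKM in control, R-spondin2, clone 1 and clone 2. For SFRP1, with a range of 2.12, they were TMEM151B (0.0466), JPH4 (0.132), GDPD2 (0.168), SLC30A3 (0.171) and FOXD3 (0.191), all at lower levels than SFRP1. FOXD3, a transcription factor of pluripotent and neural crest cells, was at 1.99, 0.920, 6.56 and 4.47 FPKM in the same order. For SFRP2, with a range of 1.54, they were CLDN7 (0.0842), TRERF1 (0.115), WSCD1 (0.117), ERBB3 (0.123) and CYP2S1 (0.126). CLDN7, a tight junction protein of epithelia, was at 25.8, 17.6, 54.2 and 47.9 FPKM. SFRP1 and SFRP2 lay 0.519 from each other and 3.29 and 2.98 from DKK1. With 4 libraries such distances are a description only.

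The receptors that Dickkopf proteins act on were measured in the same libraries. All 4 co-receptor genes (LRP5, LRP6, KREMEN1 and KREMEN2) passed the filter, and none differed 2-fold in any comparison. Of all genes tested, 0.221% did so with R-spondin2, 1.32% in both clones and 0.252% between the clones. KREMEN2 had the widest spread, at 3.57 FPKM in the control, 4.59 with R-spondin2, 7.27 in clone 1 and 5.83 in clone 2. LRP6 stayed between 9.78 and 11.1 FPKM.
The WNT ligands, which SFRP proteins bind, passed the filter for 9 of 19 genes. With R-spondin2 none differed 2-fold, a size that only 0.221% of all genes tested reached. In both clones 0 were higher and 2 lower, WNT5A and WNT8A, beside the same 1.32% of all genes. WNT5A, a ligand known mainly for signaling without beta-catenin, was at 31.5 FPKM in the control, 42.5 with R-spondin2, 6.12 in clone 1 and 11.3 in clone 2. WNT8A, a streak ligand, was at 11.2, 7.89, 3.45 and 4.03 FPKM. The median of the 9 was -0.54 in the clones, against 0.02 over all genes. Summed over the 19 ligands, the FPKM was 97.0 in the control, 106.9 with R-spondin2, 40.5 in clone 1 and 61.7 in clone 2, so that it was lower in the clones while the sum of the antagonists was not.

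All 10 Frizzled receptors passed the filter, and none differed 2-fold in the same direction in both clones or with R-spondin2. Their median in the clones was -0.35, with FZD7, the most abundant, at 109.4, 131.7, 65.2 and 69.4 FPKM. The other extracellular inhibitors and modulators outside these 3 families, 13 of 15 tested, held 1 gene past 2-fold in each comparison with the control, where 0.221% of all genes tested were past it with R-spondin2 and 1.32% in both clones. With R-spondin2 it was GPC3, a glypican, at 18.7 FPKM in the control and 8.11 FPKM with R-spondin2. GPC3 was higher than control in the clones, at 42.5 and 31.6 FPKM, and passed 2-fold in clone 1 only. In both clones the gene past 2-fold was CER1, an inhibitor of NODAL, BMP and WNT ligands. CER1 was at 2395 FPKM in the control, 3467 with R-spondin2, 599 in clone 1 and 1034 in clone 2. CER1 thus exceeded all 10 antagonists together in every library.

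Of the beta-catenin feedback and target genes 18 of 19 were tested. None differed 2-fold with R-spondin2 (median 0.02), a size that only 0.221% of all genes tested reached. In both clones 0 were higher and 4 lower, NKD1, LGR5, CDX2 and BAMBI, with a median of -0.43. There 1.32% of all genes tested were past 2-fold in either direction. LGR5, an R-spondin receptor, was at 36.7, 46.3, 4.85 and 9.78 FPKM and NKD1, an inhibitor of Dishevelled, at 19.3, 22.2, 5.22 and 8.70 FPKM in control, R-spondin2, clone 1 and clone 2. AXIN2, the feedback gene often used as a readout of the pathway, was at 20.2, 19.3, 17.6 and 20.8 FPKM and so did not share the lower level of DKK1. The lists were chosen with earlier results of these data known.

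**Figure D5:**
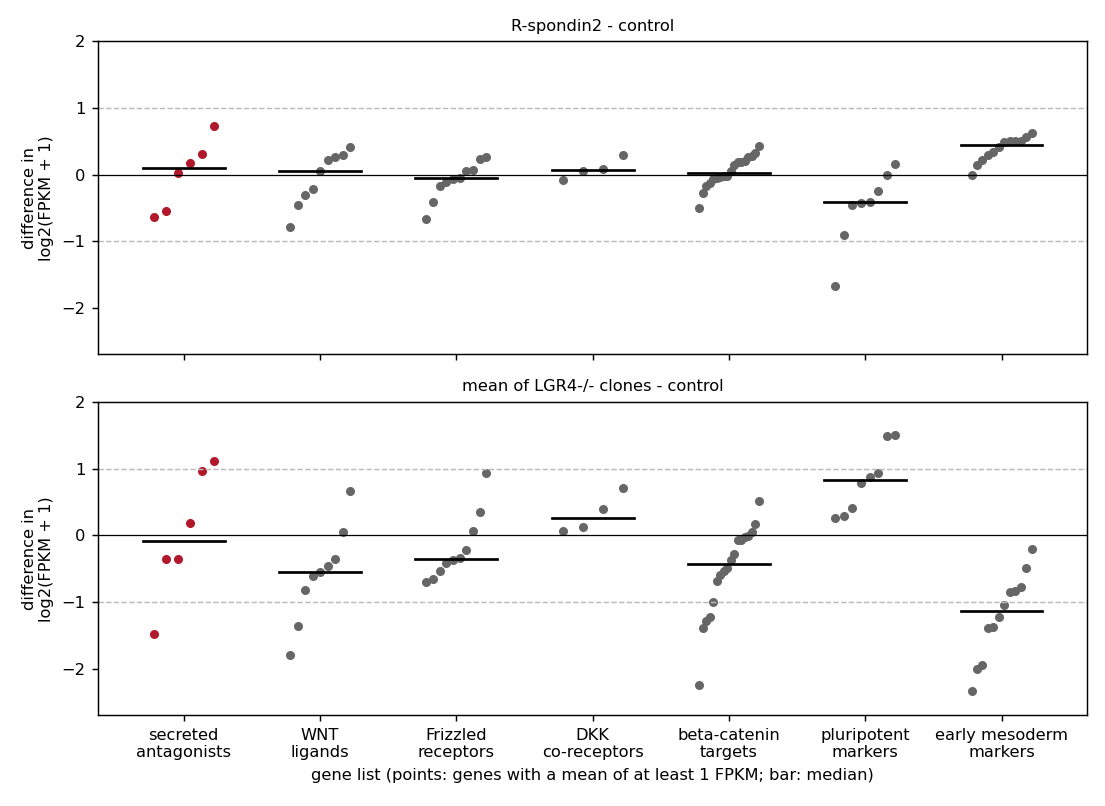
Differences in log2(FPKM + 1) for the antagonists and for 6 other gene lists, with 1 point per gene of at least 1 FPKM on average, a bar at the median and dashed lines at 2-fold. The antagonists spread to both sides of 0, whereas in the clones all pluripotency markers lie above 0 and all early mesoderm markers below it.

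Markers of cell state also differed between the libraries in which DKK1, SFRP1 and SFRP2 differed. All 8 pluripotency markers were higher in both clones, with a median of 0.83, and SOX2 and PRDM14 passed 2-fold, as 1.32% of all genes tested did. SOX2 was at 19.9 FPKM in the control, 5.58 with R-spondin2, 66.0 in clone 1 and 50.7 in clone 2. With R-spondin2, 7 of the 8 were lower (median -0.42), and their summed level was 1145 FPKM against 1389 in the control and 2210 and 2068 in the clones. All 12 markers of primitive streak and early mesoderm were lower in both clones, with a median of -1.14, and 11 of the 12 were higher with R-spondin2 (median 0.45). In clone 2, T (66.5 against 70.3 FPKM in the control) and KDR (32.9 against 34.4) were only slightly lower. MESP1, HAND1, APLNR and FOXF1 passed 2-fold in both clones, and MESP1 and HAND1 were also past 2-fold higher in clone 2 than in clone 1, as against 1.32% and 0.252% of all genes tested in these comparisons. The summed level of all 12 markers was 1231 FPKM in the control, 1619 with R-spondin2, 437 in clone 1 and 678 in clone 2. The part of cell state in the values of DKK1, SFRP1 and SFRP2 was not tested.
Of the 10 stromal markers 8 were tested, with medians of 0.40 with R-spondin2 and -0.25 in the clones, and LUM passed 2-fold as lower in both clones and as higher in clone 2 than in clone 1, at 5.49, 9.11, 0.160 and 1.45 FPKM. DCN and POSTN stayed at or below 0.390 FPKM in all 4 libraries. The summed level of this list was 510 FPKM in the control, 623 with R-spondin2, 388 in clone 1 and 477 in clone 2, highest in the library where SFRP1 and SFRP2 were lowest, and its part in their values was not tested. The cells had been sorted for the human antigen TRA-1-85 and the stroma was a mouse line, and the purity of the sort was not tested here.
Of the endoderm markers 5 of 7 were tested. None passed 2-fold in either comparison with the control, a size that 0.221% of all genes reached with R-spondin2 and 1.32% in both clones. Their median was 0.08 with R-spondin2 and -0.51 in the clones, where by the clone mean 4 were lower and 1 higher. The summed level of this list was 77.5 FPKM in the control, 83.4 with R-spondin2, 48.4 in clone 1 and 56.5 in clone 2. Of the 6 neuroectoderm markers OTX2 alone was tested (35.9 to 54.9 FPKM). Of the 8 blood and endothelial markers 3 were tested. RUNX1 passed 2-fold as lower in both clones, as 1.32% of all genes tested did in either direction. TEK was higher in both clones (9 and 7.98 FPKM, against 5.73 in the control) and PTPRC slightly lower (1.29 and 1.18, against 1.52). The summed level of this list was 12.3 FPKM in the control, 12.2 in clone 1 and 11.9 in clone 2.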

How the data were processed

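RNA-SEQ libraries were made from TRA-1-85+ cells sorted at day 2. The authors deposited FPKM for 17894 genes per library, given to 2 decimals; the submitters' processing notes name hg19, BWA, Bowtie and RSEM, and their versions and any filters are not given in the sources used here. No read counts were used. Differences were taken on log2(FPKM+1), which makes differences of low genes look smaller, and 12697 genes that averaged 1 FPKM or more were tested. A gene was called at 2-fold, for LGR4-/- in both clones the same way. With 1 control library no test was run, and a fit that takes its spread from the 2 clones alone was not run.

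For depth, low values (under 0.6 FPKM, transcripts under 1500 bases) were converted to reads over a range of library totals, and the total that brought them nearest to whole numbers was kept. This gave 8920000, 8700000, 8910000 and 8810000 reads (control, R-spondin2, clone 1, clone 2), where 76.0% to 78.3% of them were whole to within 0.2 read, and 31.3% to 38.7% once lengths were shuffled. Lengths came from GENCODE release 29. Ratios carry exact Clopper-Pearson intervals and levels exact Poisson intervals, given where at least 10 reads were implied in 1 of the libraries. Promoter sequences came from RefSeq (GRCh38.p14), with windows for 6 of the 10 genes; chromosome positions of the authors' build were not used. The planned comparison of protein sequences was not run, as no protein sequences were used here. The members and gene lists were chosen with earlier results of these data known. Named were the 10 antagonists, LGR4, the 5 nearest profiles of 3 antagonists (1 of them is not reported here) and list genes past 2-fold; KREMEN2, LRP6, FZD7, AXIN2, POU5F1, MIXL1, PECAM1, CD34, CDH5, GATA1, SPI1, TEK, PTPRC, DCN, POSTN and OTX2 were named after their values were seen. The depth estimate and calls were run on simulated data, drawn as whole reads with the same transcript lengths that the estimate assumes. Such a run cannot show whether the deposited values follow that setting. Computations used Python 3.11.15, numpy 2.4.6, scipy 1.17.1, pandas 2.3.3 and matplotlib 3.10.9.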

Additional observations from a re-analysis of the deposited data

How the results depend on the processing

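The count of antagonists past 2-fold (0 with R-spondin2, 1 in both LGR4-/- clones, 0 between the clones) was the same with a pseudocount of 0.1, with no filter on low values, with a minimum mean of 5 FPKM and after rescaling each library by its median ratio. With a threshold of 1.5-fold it was 2, 3 and 2. Leaving out either clone gave 1 to 3 antagonists, with 3 (DKK1, SFRP1 and SFRP2) for clone 1 alone and 1 (DKK1) for clone 2 alone. The share of all genes past 2-fold was not taken for 1 clone alone. Over all genes tested, the differences from control had an SD of 0.41 in clone 1 and 0.315 in clone 2. Of 80 recomputed differences of single antagonists, 1 changed sign: DKK4, at 0.19 as the mean of both clones and at -0.009 in clone 1 alone. With the pseudocount of 0.1 no sign changed, and 6 of the 10 means of both clones against control moved by more than 1 SD of the clones: DKK2, DKK3, SFRP4, SFRP5, FRZB and WIF1 (0.55 to 1.07 for WIF1). The other comparisons have no such SD, and genes of low level moved there too: SFRP4 from 0.28 to 1.10 and SFRP5 from -0.34 to -0.75 with R-spondin2, and SFRP4 from 0.22 to 0.82 between the clones. After rescaling 1 of the 10 clone means moved by more than that SD, DKK3, from -0.36 to -0.38. Depth limited SFRP4, SFRP5, WIF1 and DKK2, whose levels rested on at most 29 implied reads. No paired analysis was possible because control and R-spondin2 had 1 library each.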
